A study of Mus musculus with 28 samples.

Results

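The 42 genes described here encode factors that build the mouse ribosome, and they were taken as a named list from the 55414 genes of the count table. The list holds 5 genes of RNA polymerase I transcription, 3 of the box C/D and 5 of the H/ACA small nucleolar ribonucleoproteins (snoRNPs), 4 nucleolar RNA-binding or remodelling proteins, 10 of the small subunit processome, 5 late small subunit factors and 10 large subunit factors. All 42 were found in the table, and all 42 were among the 18991 genes with enough counts to be tested. RNA was sequenced from ear skin of 28 female C57BL/6J mice aged 6 to 8 weeks. The HSP90 inhibitor RGRN-305 (about 1 mg per ear) or acetone was put on the ear 100 min before TPA (about 2.5 µg per ear) or acetone, and a punch of the ear was taken 4 h after TPA. The groups were TPA+RGRN-305 (n = 10), TPA (n = 10), RGRN-305 alone (n = 4) and vehicle, which received acetone at both steps (n = 4). TPA, a phorbol ester, switches on protein kinase C and brings inflammation to the skin within hours, while HSP90 is a chaperone on which many signalling kinases depend for their fold. The study ran 2 independent experiments, and which of them each sequenced mouse came from is not given in the sources used here.

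Ribosome assembly starts in the nucleolus, where RNA polymerase I transcribes a long precursor of the ribosomal RNAs. The precursor is modified by box C/D snoRNPs, which methylate riboses, and by H/ACA snoRNPs, which turn uridine into pseudouridine, and it is folded and cut in the small subunit processome and in pre-ribosomes of the large subunit. Cells raise the transcripts of these factors when growth signals reach them, and MYC is a known activator of many of them. In skin, keratinocytes of the epidermis are the main cells that grow and divide. A co-chaperone of HSP90, the R2TP complex, assists the assembly of box C/D snoRNPs.

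Totals ran between 16751780 and 24716640 counts per mouse. As a check of the tissue label, 7 keratinocyte markers summed to 24587 to 32404 CPM (counts scaled by TMM to a common library size) over the 28 mice, with no marker at 0. The punch also held muscle, whose 6 markers summed to 3563 to 7430 CPM. One library went against the label of sex. TPA+RGRN-305 mouse 6 had 0.538 CPM of Xist, the RNA of the inactive X chromosome, where the other 27 libraries had 396 to 742 CPM. Transcripts of the growing hair follicle also differed between mice, and 7 libraries, mouse 6 among them, had more than 2 times the median of 16.5 summed CPM of 9 follicle transcripts, and 2 (TPA mouse 3 and TPA+RGRN-305 mouse 1) had more than 5 times. Each library came from 1 mouse, and the p-values measure the spread between mice.

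TPA was set against vehicle to see what the phorbol ester did to these transcripts in the skin. After TPA, 41 of the 42 transcripts were higher than in vehicle mice and 0 were lower at an adjusted p under 0.05 (edgeR quasi-likelihood test), where 31.6% of all genes tested were called higher and 34.4% lower. The median log2 fold change of the 42 was 1.21, and that of all genes was -0.03. The highest were Utp4 and Heatr1 of the small subunit processome, Bysl of late small subunit maturation and the nucleolar helicase Ddx21, each more than 3 times its level in vehicle skin. By the stricter rule for a differentially expressed gene (DEG), which also asks for more than 50 normalized counts on average and a log2 fold change past 1, 26 were DEGs, against 7.6% of all genes tested. For 40 members every TPA mouse lay above every vehicle mouse, as did 23.8% of all genes. The exceptions were Nop10 and Polr1c.

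TPA+RGRN-305 was set against TPA to see what the inhibitor did to the response. In these mice 40 of the 42 transcripts were lower than after TPA alone and 0 were higher, where 32.6% of all genes were called lower and 33.0% higher. The median log2 fold change was -0.82, and that of all genes was 0.02. Of the 40, 10 were DEGs, against 4.61% of all genes, and for 34 members every TPA+RGRN-305 mouse lay below every TPA mouse, as did 15.5% of all genes. The members whose groups overlapped were Fbl, Nhp2, Nop10, Noc2l, Pes1, Polr1c, Ubtf and Wdr12. Both comparisons use the same 10 TPA libraries.

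Most of the transcripts remained above the vehicle level in TPA+RGRN-305 mice. Against vehicle mice 36 of the 42 were higher and 0 lower, where 11.7% of all genes were called higher and 10.3% lower. The median log2 fold change was 0.40. A single member was a DEG, Bysl, against 1.22% of all genes, and every TPA+RGRN-305 mouse lay above every vehicle mouse for 29 members, against 6.58% of all genes. The 6 that did not pass were Ncl, Wdr12, Pes1, Polr1a, Polr1c and Nop10, with log2 fold changes of 0.21, 0.23, 0.07, 0.21, 0.02 and 0.31.

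**Figure D1:**
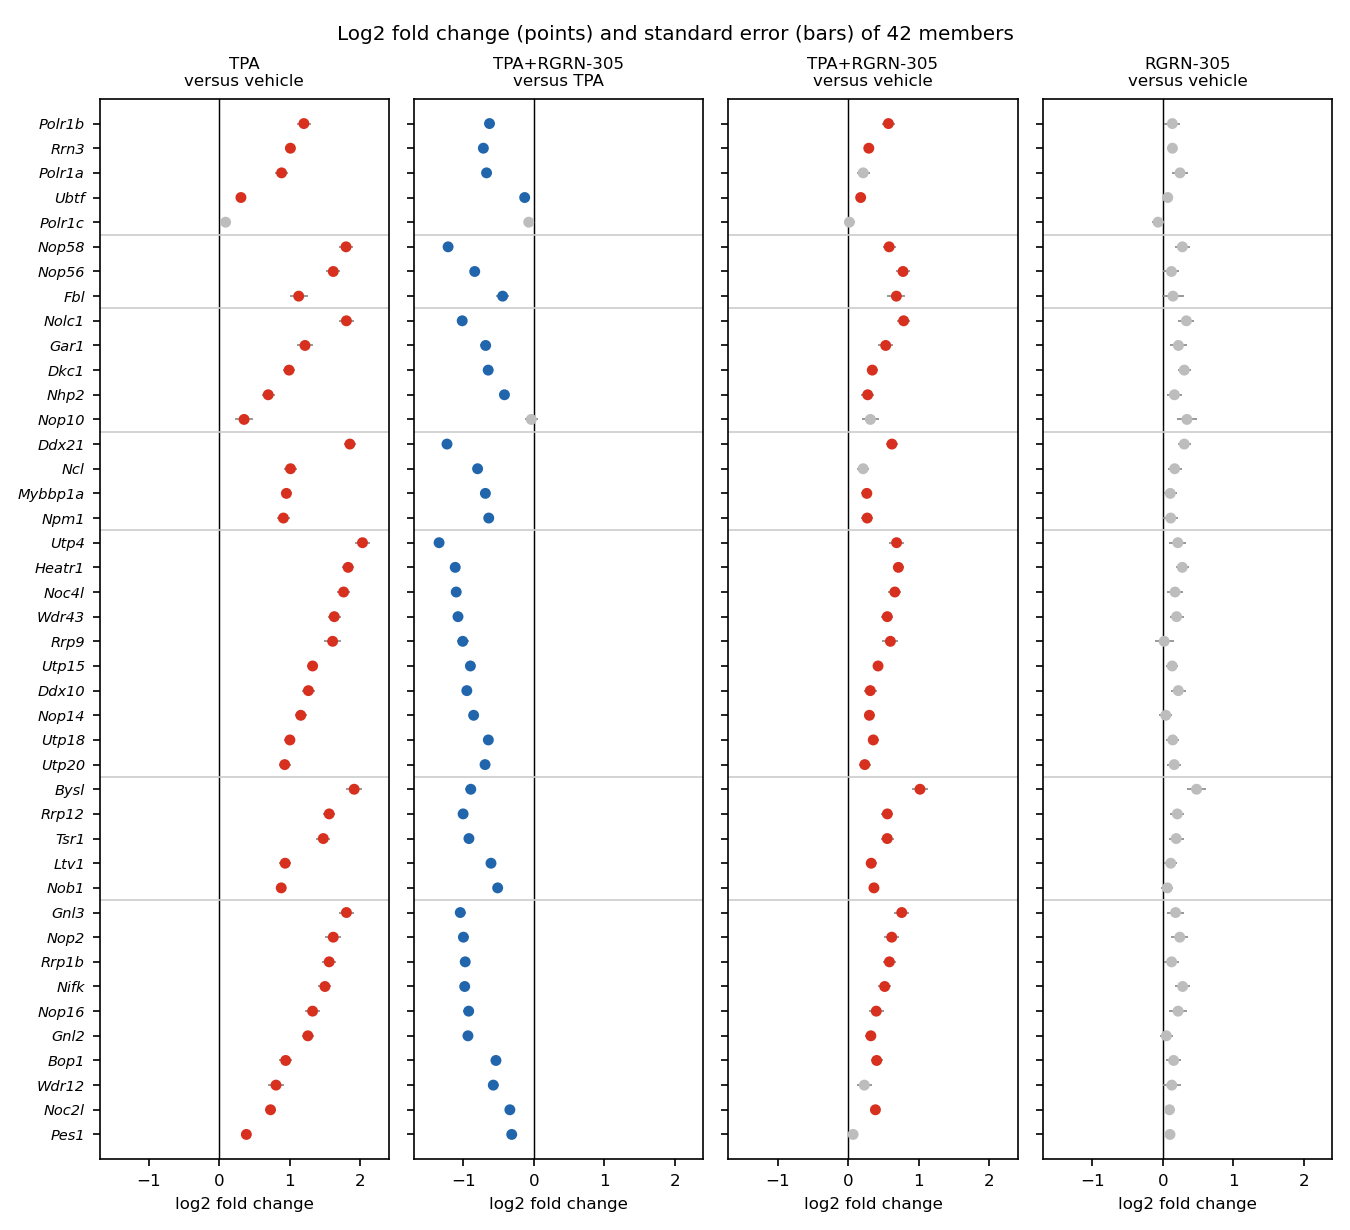
Log2 fold change of each of the 42 members in 4 comparisons, with points for the estimate and bars for its standard error, grouped by role from RNA polymerase I (top) to large subunit factors (bottom). Red and blue mark members higher or lower at an adjusted p under 0.05, and grey marks the rest: 41 are red after TPA, 40 are blue for TPA+RGRN-305 against TPA, 36 are red for TPA+RGRN-305 against vehicle and 0 are coloured for RGRN-305 alone. Scaled by library totals alone, Polr1c is lower after TPA, and Nop10, Polr1c and Ubtf have values above 0 in TPA+RGRN-305 versus TPA.

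These directions were taken with TMM scaling, which allows for a few abundant genes taking up much of a library. When library totals alone were used, the median of all genes shifted by -0.29 after TPA and by 0.26 for TPA+RGRN-305 against TPA. The share of calls that were higher then became 28.2% (47.9% with TMM) and 74.2% (50.3% with TMM). The members then numbered 38 higher and 1 lower after TPA, and 36 lower and 3 higher in TPA+RGRN-305 versus TPA. Of all 18991 genes, 3910 were then higher and 9978 lower after TPA, and 3666 were lower and 10517 higher in TPA+RGRN-305 versus TPA. Relative to the median of all genes, the median of the members after TPA was 1.24 with TMM and 1.23 with library totals. With the inhibitor this difference from the median of all genes was -0.84 under either scaling. A change of scaling moves every gene by nearly the same amount, and subtracting the median of all genes takes that amount out. The closeness of these values therefore follows from the calculation, and it does not test whether the result depends on the scaling.

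Neutrophil transcripts changed in the same mice. The 8 neutrophil markers, of which S100a8 and S100a9 can also be made by stressed keratinocytes, summed to 10.6 to 49.5 CPM in TPA+RGRN-305 mice, 208 to 331 CPM in TPA mice, 6.46 to 14.3 CPM in RGRN-305 mice and 6.23 to 12.8 CPM in vehicle mice. All 6 that were tested were higher after TPA and lower in TPA+RGRN-305 than in TPA mice, and 1 marker was at 0 in every RGRN-305 mouse and 1 in every vehicle mouse. Their part in the change of the ribosome biogenesis transcripts was not tested. In bulk skin, more cells of a type that holds a transcript and more of the transcript per cell cannot be told apart. Of 7 keratinocyte markers 4 were higher and 1 lower in TPA+RGRN-305 versus TPA, with a median log2 fold change of 0.12, and 2 were higher and 2 lower after TPA, with a median of -0.15. Their part was not tested either.

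Among the genes of RNA polymerase I, 4 of 5 rose after TPA and the same number fell with the inhibitor. Polr1b, the next largest subunit after the catalytic one, had the highest log2 fold change after TPA, 1.20 (standard error of the estimate, SE, 0.10), followed by 1.01 for Rrn3, the initiation factor that brings the polymerase to its promoter, and 0.88 for Polr1a, the catalytic subunit. In TPA+RGRN-305 versus TPA the values were -0.63 for Polr1b, -0.72 for Rrn3 and -0.67 for Polr1a. Ubtf (chromosome 11, 102195386 to 102210568, on GRCm39, as are the gene positions below), the factor that coats the ribosomal DNA, had the highest level of its group and one of the smallest changes. It had 195, 215 and 239 CPM as the lowest, median and highest of the TPA+RGRN-305 mice, 228, 238 and 246 CPM in TPA mice, 181, 202, 218 and 207 CPM in the 4 RGRN-305 mice and 186, 193, 205 and 185 CPM in the 4 vehicle mice. TPA mice were all above the vehicle mice, while TPA+RGRN-305 mice overlapped both. The log2 fold change was 0.31 after TPA (SE 0.05, adjusted p = 8.58e-06) and -0.13 in TPA+RGRN-305 versus TPA (SE 0.04, adjusted p = 0.0051), and with library totals the first was no longer called and the second turned to 0.13.

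Polr1c (chromosome 17, 46554843 to 46559126) was the 1 member that did not pass after TPA. It encodes a subunit that RNA polymerase I shares with RNA polymerase III. Its CPM was 33.0, 39.6 and 44.9 as the lowest, median and highest of the TPA+RGRN-305 mice and 35.0, 40.4 and 46.5 in TPA mice, with 37.0, 35.7, 37.7 and 36.2 in RGRN-305 mice and 35.6, 33.8, 41.0 and 43.0 in vehicle mice. All 4 groups overlapped. Its log2 fold change was 0.09 after TPA (SE 0.08, adjusted p = 0.315) and -0.07 in TPA+RGRN-305 versus TPA (SE 0.06, adjusted p = 0.27), and with library totals these became -0.20 and 0.18.

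All 3 box C/D proteins rose after TPA and fell with the inhibitor. Nop58 (chromosome 1, 59724106 to 59758203), a core protein of these particles, had 77.0, 94.7 and 121 CPM as the lowest, median and highest in TPA+RGRN-305 mice, 185, 223 and 252 CPM in TPA mice, 76.4, 81.3, 78.3 and 76.7 CPM in RGRN-305 mice and 59.5, 59.6, 73.5 and 65.1 CPM in vehicle mice. Every TPA mouse stood above every other mouse, and the 4 RGRN-305 mice lay above the 4 vehicle mice. The log2 fold change was 1.80 after TPA (SE 0.10, adjusted p = 2.03e-16) and -1.22 in TPA+RGRN-305 versus TPA (SE 0.07, adjusted p = 2.39e-16). Its partner Nop56 had 1.61 and -0.84. Fbl, the methyltransferase itself, had 1.12 after TPA and -0.44 with the inhibitor, the smallest move of the 3 in both comparisons.

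The H/ACA proteins were uneven. Nolc1 (chromosome 19, 46064234 to 46073983), a phosphoprotein that binds the particles and accompanies them through the nucleolus, had 77.4, 97.5 and 128 CPM as the lowest, median and highest in TPA+RGRN-305 mice, 173, 201 and 225 CPM in TPA mice, 73.8, 87.2, 62.3 and 70.9 CPM in RGRN-305 mice and 56.8, 60.8, 62.8 and 52.8 CPM in vehicle mice. TPA+RGRN-305 mice lay below all TPA mice and above all vehicle mice, and overlapped the RGRN-305 mice. Its log2 fold change was 1.80 after TPA, -1.02 in TPA+RGRN-305 versus TPA and 0.78 in TPA+RGRN-305 versus vehicle (SE 0.10, adjusted p = 5.98e-07), the second highest of the members in the last comparison. Of the 4 core proteins, Gar1 had 1.21 and -0.68 in the first and second of these, Dkc1, the pseudouridine synthase, 0.99 and -0.65, and Nhp2 0.69 and -0.42.

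Nop10 (chromosome 2, 112092271 to 112093764), the smallest of the core proteins, had the lowest change of the 5 in both comparisons. It had 17.3, 19.6 and 22.6 CPM as the lowest, median and highest in TPA+RGRN-305 mice, 14.9, 20.2 and 28.9 CPM in TPA mice, 26.9, 17.3, 18.1 and 20.2 CPM in RGRN-305 mice and 13.9, 15.5, 18.6 and 17.0 CPM in vehicle mice. All groups overlapped, with 1 high mouse each in the TPA and the RGRN-305 group. The log2 fold change was 0.35 after TPA (SE 0.12, adjusted p = 0.0134) and -0.04 in TPA+RGRN-305 versus TPA (SE 0.09, adjusted p = 0.739). The call after TPA was lost without vehicle mouse 1 (adjusted p = 0.0717) and with library totals, and the second value turned to 0.029 without TPA mouse 4 and to 0.22 with library totals.

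Among the nucleolar RNA-binding and remodelling proteins, Ddx21 (chromosome 10, 62415574 to 62438099) had the largest change. This helicase works on ribosomal and small nucleolar RNAs. Its level was 138, 160.2 and 200.5 CPM as the lowest, median and highest in TPA+RGRN-305 mice, 334, 399 and 431 CPM in TPA mice, 141, 141, 119 and 130.1 CPM in RGRN-305 mice and 109, 108, 108 and 105 CPM in vehicle mice. None of the TPA mice overlapped any other group, and the vehicle mice lay below all the rest. The fold after TPA was 3.60 (log2 1.85, SE 0.09, adjusted p = 6.39e-18), and in TPA+RGRN-305 versus TPA the log2 fold change was -1.23 (SE 0.06, adjusted p = 6.86e-18).

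The other 3 of that group rose and fell less. Ncl (chromosome 1, 86272441 to 86287208) encodes nucleolin, and its 452, 514 and 669 CPM as the lowest, median and highest in TPA+RGRN-305 mice stood against 754, 956 and 1049 CPM in TPA mice, 499, 551, 501 and 544 CPM in RGRN-305 mice and 453, 447, 481 and 481 CPM in vehicle mice. TPA mice were above all others, and TPA+RGRN-305 mice overlapped the vehicle mice. The log2 fold changes were 1.01 after TPA, -0.80 in TPA+RGRN-305 versus TPA and 0.21 in TPA+RGRN-305 versus vehicle (adjusted p = 0.0729). Mybbp1a, a nucleolar partner of Myb proteins, had 0.95 after TPA and -0.69 with the inhibitor, and Npm1 (nucleophosmin), an abundant nucleolar chaperone, had 0.91 and -0.64.

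All 10 members of the small subunit processome rose after TPA, with a median log2 fold change of 1.46, and all 10 fell with the inhibitor, with a median of -0.98. Utp4 (chromosome 8, 107619814 to 107649965), part of the complex that first binds the precursor in yeast, had 37.6, 45.8 and 62.8 CPM as the lowest, median and highest in TPA+RGRN-305 mice, 102, 116 and 141 CPM in TPA mice, 34.0, 37.2, 33.0 and 29.7 CPM in RGRN-305 mice and 32.0, 28.9, 30.1 and 24.5 CPM in vehicle mice. The TPA mice stood clear of all the others, and the TPA+RGRN-305 mice stood above the RGRN-305 and the vehicle mice. It had the highest fold of the 42 after TPA, 4.08 (log2 2.03, SE 0.11, adjusted p = 1.06e-16), and the lowest log2 fold change in TPA+RGRN-305 versus TPA, -1.34 (SE 0.07, adjusted p = 1.38e-16).

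Heatr1 (chromosome 13, 12409908 to 12455170), the counterpart of yeast Utp10 in the same early complex, had 47.7, 56.2 and 70.6 CPM as the lowest, median and highest in TPA+RGRN-305 mice, 111, 126 and 139 CPM in TPA mice, 42.1, 48.6, 38.9 and 40.6 CPM in RGRN-305 mice and 36.2, 34.1, 37.1 and 33.1 CPM in vehicle mice. TPA mice were again above all others, TPA+RGRN-305 mice were above vehicle mice and overlapped RGRN-305 mice, and RGRN-305 mice were above vehicle mice. The log2 fold change was 1.83 after TPA (SE 0.09) and -1.12 with the inhibitor (SE 0.06). Wdr43 (chromosome 17, 71922890 to 71966027), another protein of that complex and the member with the highest counts in the processome, had 82.5, 96.5 and 119 CPM as the lowest, median and highest in TPA+RGRN-305 mice, 182, 213 and 237 CPM in TPA mice, 72.6, 85.1, 76.2 and 77.1 CPM in RGRN-305 mice and 66.7, 64.5, 76.9 and 63.1 CPM in vehicle mice. TPA mice again lay above all others.

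The remaining processome members had log2 fold changes after TPA between 0.93 and 1.76. Noc4l, which pairs with Nop14 in yeast, had 1.76, and Nop14 had 1.15. Rrp9, a protein of the U3 snoRNP, had 1.61. Utp15 had 1.32, the helicase Ddx10 1.26, Utp18 0.999 and the large scaffold Utp20 0.93. With the inhibitor these 7 lay between -1.10 (Noc4l) and -0.65 (Utp18), and of the 10 processome genes 5 were DEGs in that comparison.

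The 5 late small subunit factors rose after TPA and fell with the inhibitor. Bysl (chromosome 17, 47910256 to 47922469), the counterpart of yeast Enp1, had 28.3, 36.5 and 46.0 CPM as the lowest, median and highest in TPA+RGRN-305 mice, 61.6, 67.2 and 77.7 CPM in TPA mice, 23.9, 33.7, 19.5 and 24.2 CPM in RGRN-305 mice and 17.2, 18.4, 21.3 and 15.6 CPM in vehicle mice. The TPA+RGRN-305 mice lay below the TPA mice and above the vehicle mice, and RGRN-305 mouse 2 reached into their range. The log2 fold change was 1.91 after TPA (SE 0.12) and -0.89 with the inhibitor (SE 0.08), and 1.02 in TPA+RGRN-305 versus vehicle (SE 0.11, adjusted p = 1.29e-07), the highest of the members there.

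Tsr1 (chromosome 11, 74787994 to 74801270), a GTPase-like protein of late pre-ribosomes, had 63.2, 73.6 and 94.0 CPM as the lowest, median and highest in TPA+RGRN-305 mice, 121, 147 and 159 CPM in TPA mice, 55.4, 65.1, 54.2 and 60.8 CPM in RGRN-305 mice and 53.9, 51.2, 54.2 and 47.0 CPM in vehicle mice. Its TPA mice did not overlap any other group. Rrp12, which takes part in export, had log2 fold changes of 1.56 after TPA and -1.003 with the inhibitor. Ltv1, which leaves the particle before it can translate, had 0.93 and -0.61, and Nob1, the nuclease that cuts the end of the small subunit RNA, had 0.88 and -0.51.

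All 10 large subunit factors rose after TPA, with a median log2 fold change of 1.29, and all 10 fell with the inhibitor, with a median of -0.93. The GTPase Gnl3 (nucleostemin) led with 1.80 after TPA and -1.04 with the inhibitor. The RNA methyltransferase Nop2 had 1.61 and -0.999, Rrp1b 1.56 and -0.97, and Nifk, which binds the proliferation protein encoded by Mki67, 1.50 and -0.98. Nop16 had 1.32 and -0.92, and the GTPase Gnl2 1.25 and -0.93.

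The 3 subunits of the PeBoW complex, which processes large subunit RNA, had unequal values. Bop1 had a log2 fold change of 0.94 after TPA and Wdr12 0.80, whereas Pes1 (chromosome 11, 3913938 to 3931441) had 0.38 (SE 0.06, adjusted p = 4.27e-06). With the inhibitor they had -0.54 (Bop1), -0.58 (Wdr12) and -0.31 (Pes1). The level of Pes1 was 80.7, 84.2 and 101 CPM as the lowest, median and highest in TPA+RGRN-305 mice, 94.2, 109 and 120.2 CPM in TPA mice, 88.6, 91.1, 88.4 and 89.1 CPM in RGRN-305 mice and 83.8, 79.4, 87.5 and 81.9 CPM in vehicle mice. TPA mice lay above the vehicle and RGRN-305 mice and overlapped the TPA+RGRN-305 mice, and with library totals neither call of Pes1 held. The differences between the 3 genes were not tested.

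Noc2l (chromosome 4, 156320376 to 156332073), a nucleolar protein of the large subunit pathway, had the highest counts over all mice in this group. It had 109.7, 114 and 133 CPM as the lowest, median and highest in TPA+RGRN-305 mice, 128, 151 and 167 CPM in TPA mice, 80.3, 112, 98.3 and 97.5 CPM in RGRN-305 mice and 87.0, 93.6, 91.8 and 90.5 CPM in vehicle mice. TPA mice lay above all vehicle and RGRN-305 mice and overlapped the TPA+RGRN-305 mice. Noc2l had a log2 fold change of 0.72 after TPA and -0.34 with the inhibitor.

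**Figure D2:**
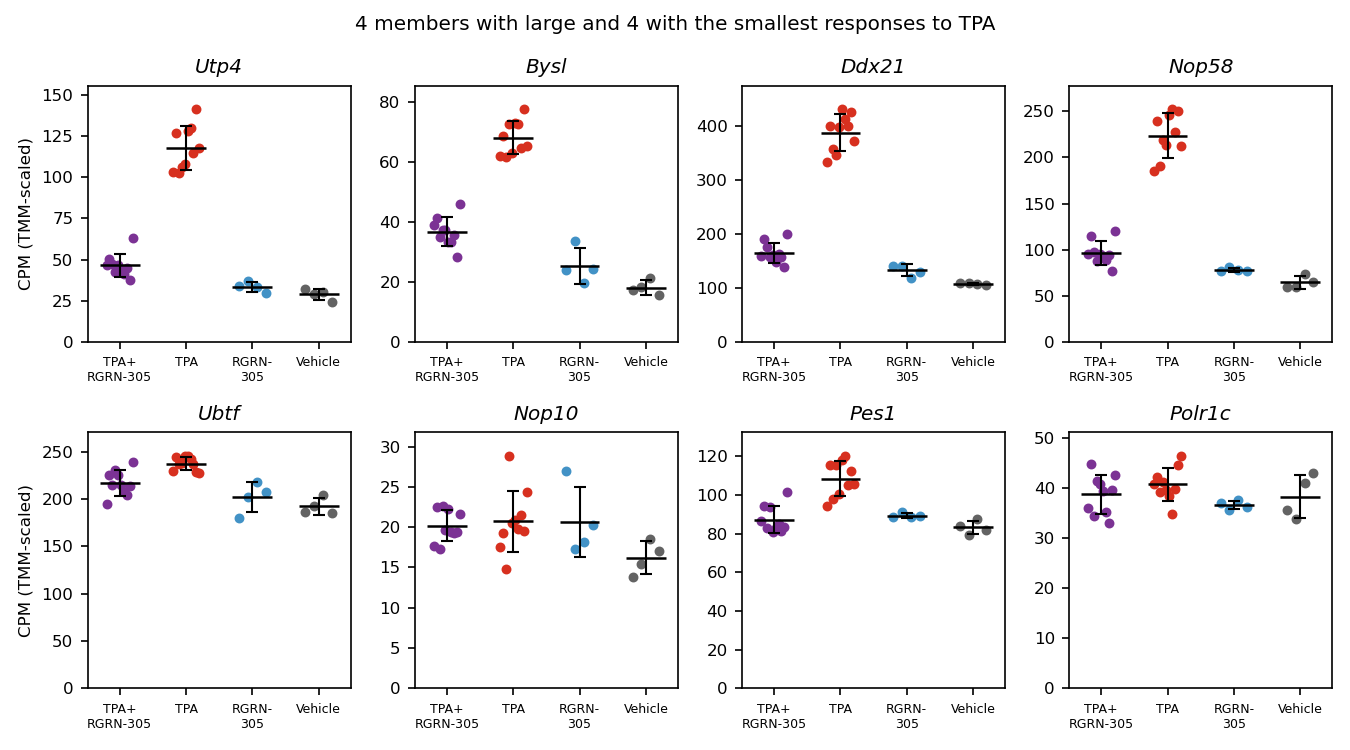
TMM-scaled CPM (y axis, from 0) of 8 members in every mouse, 1 point per mouse, with the mean (wide bar) and SD (error bars) of TPA+RGRN-305 (n = 10), TPA (n = 10), RGRN-305 (n = 4) and vehicle mice (n = 4). For Utp4, Bysl, Ddx21 and Nop58 every TPA mouse lies above every other mouse, whereas for Nop10 and Polr1c all groups overlap. The 8 were chosen after their values were seen.

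To summarise each mouse, the log2 CPM of every member was set against its mean in vehicle mice, and the median over the 42 was taken. It was 0.27 to 0.68 in TPA+RGRN-305 mice with a median of 0.41, and 0.97 to 1.31 in TPA mice with a median of 1.21. It was 0.10 to 0.31 in RGRN-305 mice and -0.05 to 0.10 in vehicle mice, and these ranges overlapped. The lowest of the TPA+RGRN-305 mice was mouse 9 and the highest was mouse 10, and the TPA mouse nearest to them was mouse 1, so that these groups did not overlap. In the RGRN-305 group mouse 2 was the highest. TPA+RGRN-305 mouse 6, the library with little Xist, had 0.34, and without it 40 members were lower than in TPA mice and 35 were higher than in vehicle mice.

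**Figure D3:**
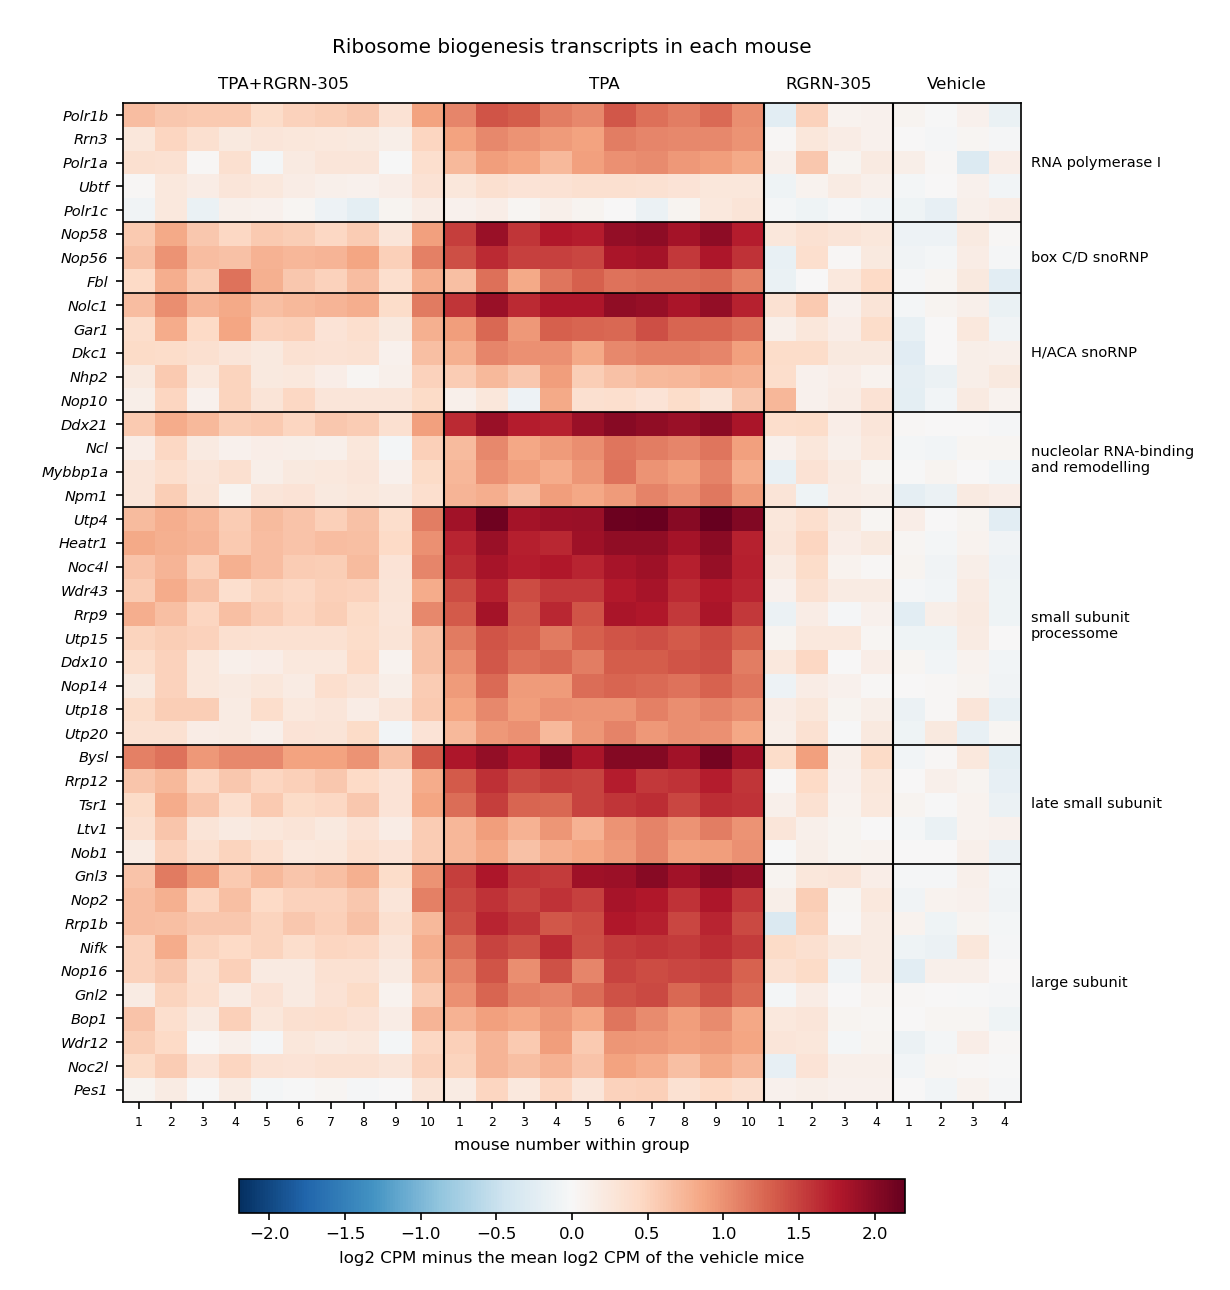
Log2 CPM of the 42 members (rows, ordered by role) in each of 28 mice (columns) minus the mean log2 CPM of the vehicle mice, from blue (lower) to red (higher). The colours use log2 CPM without a prior count, and the mouse medians given here use log2 CPM with a prior count of 2. The TPA columns are the reddest, with mouse medians of 0.97 to 1.31, and the TPA+RGRN-305 columns lie between them and the vehicle columns, with 0.27 to 0.68. Ubtf, Polr1c and Pes1 are pale in all groups, and with library totals Polr1c is lower after TPA.

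RGRN-305 alone was set against vehicle to see the effect of the inhibitor without TPA. By the edgeR test 0 of the 42 members passed, as did 0.0% of all genes, where 1811 genes had an unadjusted p under 0.05 and DESeq2 called 14 genes higher and 5 lower, none of them members. With 4 mice in each group, a small effect can be missed. The estimates were above 0 for 41 of the 42, with a median of 0.16, where the median of all genes was -0.01. These 41 are not separate results, since a single mouse can move many members at once. Vehicle mouse 3 had 39 of the 42 above the vehicle mean, and vehicle mouse 4 had 13. The mouse medians of the groups overlapped, with 0.0953 as the lowest of the RGRN-305 mice and 0.0973 as the highest of the vehicle mice. For 8 members (Nop58, Ncl, Dkc1, Pes1, Bop1, Ddx21, Tsr1 and Heatr1) every RGRN-305 mouse lay above every vehicle mouse, as did 2.36% of all genes, and for 0 the order was the other way, as it was for 2.81% of all genes. The smallest p-values were those of Bysl, at 0.48 on the log2 scale (SE 0.13, adjusted p = 0.399), and of Ddx21, with 0.30 (SE 0.09, adjusted p = 0.406). Only Polr1c had an estimate below 0, -0.07 (SE 0.09).

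The interaction of TPA and RGRN-305 asks whether the response to TPA differed when the inhibitor had been applied, as the log2 fold change of TPA+RGRN-305 over RGRN-305 minus that of TPA over vehicle. It was below 0 for all 42 with TMM scaling, and for 40 it passed, where 25.0% of all genes were called lower and 25.9% higher. The exceptions were Polr1c and Nop10, with -0.01 (adjusted p = 0.968) and -0.38 (adjusted p = 0.0637). Of the 40, 18 were DEGs by the stricter rule, against 5.49% of all genes. The smallest p-values were those of Ddx21, -1.54 (SE 0.11, adjusted p = 2.62e-12), and Heatr1, -1.39 (SE 0.11, adjusted p = 1.51e-11). With library totals 36 were lower and 1 was higher, where 2691 of all 18991 genes were called lower and 8386 higher. The interaction uses the libraries of all the comparisons above.

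Other genes of ribosome assembly, not among the 42, also changed. Of 39 further small subunit factors 38 were higher and 0 lower after TPA, with a median log2 fold change of 0.88, and 36 were lower and 1 higher in TPA+RGRN-305 versus TPA, with a median of -0.63. The largest changes after TPA were those of Mphosph10, 1.78 (SE 0.11), which brings factors to the processome, and of Nol10, 1.71 (SE 0.09). Of 45 further large subunit factors 42 were higher and 3 lower after TPA, with a median of 1.10, and 42 were lower and 2 higher with the inhibitor, with a median of -0.65. Rrs1, which acts early in large subunit assembly, had 2.05 (SE 0.11) and Nip7 1.74 (SE 0.10). The 3 that fell were Ddx55, Nop53 and Nsa2, which were named after their values were seen. Leaving out each mouse in turn gave 2 to 3 genes of this list lower after TPA. With library totals, 31 of the 39 and 41 of the 45 were still higher after TPA, and 1 and 3 were lower.

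Of 16 further subunits and factors of RNA polymerase I, 8 were higher and 4 lower after TPA, and 4 were higher and 8 lower with the inhibitor. Taf1d, a subunit of the promoter selectivity factor, had 1.32 (SE 0.12), and Polr1e 1.30 (SE 0.11). Of 20 genes of RNA polymerase III and of 5S RNA synthesis 7 were higher and 7 lower after TPA, and 8 were higher and 7 lower with the inhibitor, led after TPA by Bdp1 with 1.49 and Polr3d with 1.47. Of all genes, 31.6% were higher and 34.4% lower after TPA, and 33.0% were higher and 32.6% lower with the inhibitor. The RNA polymerase III counts after TPA are near these shares. With library totals the first list had 6 in each direction and the second had 4 higher and 12 lower after TPA, and with the inhibitor they had 6 higher and 4 lower, and 13 higher and 2 lower.

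Genes that serve snoRNPs also changed. The shares of all genes to set beside their counts were 31.6% higher and 34.4% lower after TPA, and 33.0% higher and 32.6% lower with the inhibitor. Of 11 genes of snoRNP assembly, which include the R2TP complex, 8 were higher and 2 lower after TPA, and 1 was higher and 8 were lower with the inhibitor. Naf1, an H/ACA assembly factor, had 1.45 after TPA and -1.004 with the inhibitor, and Snu13, a core protein of box C/D particles, had 1.27 and -0.87. The 2 that were lower after TPA were Pih1d1 (-0.42) and Rpap3 (-0.21), both subunits of R2TP, whereas its helicases Ruvbl1 (1.002) and Ruvbl2 (0.32) were higher. These 4 were named after their values were seen, and only 1 gene of the list was called lower without vehicle mouse 1, without vehicle mouse 2 or by DESeq2. Of 12 tested host genes of small nucleolar RNAs (13 were listed) 10 were higher and 2 lower after TPA, and 2 were higher and 9 lower with the inhibitor, with Snhg1 at 1.30 and -0.91 and Snhg15 at 1.21 and -0.42. With library totals the assembly list had 7 higher and 2 lower after TPA, and the host genes 9 higher and 2 lower.

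The ribosomal protein genes had smaller medians. Of 79 cytosolic ribosomal protein genes 50 were higher and 0 lower after TPA, with a median of 0.47, and with the inhibitor 1 was higher and 29 were lower, with a median of -0.10. With library totals these counts were 33 and 18 after TPA and 30 and 14 with the inhibitor, with the shift of all genes given above. The largest changes were those of Rps29, 1.58, and Rps12, 1.48. Rps29 had 1.23 to 2.42 CPM in vehicle mice and 3.89 to 5.93 CPM in TPA mice. Rps12 had 10.9 to 14.3 CPM in vehicle mice and 27.2 to 42.2 CPM in TPA mice. Only reads that aligned once were counted, so a gene with close copies elsewhere in the genome may be counted too low. This was not tested for these 79 genes. Of 75 tested mitochondrial ribosomal protein genes 24 were higher and 21 lower after TPA, with a median of 0.01 and with Mrps25 at 0.99 and Mrpl34 at -0.85, and with library totals 6 were higher and 43 lower. With TMM these counts are near the shares of all genes, 31.6% higher and 34.4% lower. Of 15 genes of purine and pyrimidine synthesis 10 were higher and 4 lower, with Ctps1, which makes cytidine nucleotides, at 1.22 and Dhodh, of pyrimidine synthesis, at -0.93, and with library totals 7 were higher and 5 lower.

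The list of cell division genes went the other way. After TPA 14 of 15 were lower and 1 was higher, with a median of -1.19, and with the inhibitor 13 were higher and 1 was lower. With library totals these counts were 14 lower and 1 higher, and 14 higher and 1 lower. The largest changes after TPA were those of Cenpf, -2.06 (SE 0.16), and Plk1, -1.75 (SE 0.14). The 1 gene that was higher was Pcna, the clamp of replicating DNA, named after its value was seen, with 40.1, 47.5 and 51.6 CPM as the lowest, median and highest in TPA+RGRN-305 mice, 53.7, 70.4 and 72.7 CPM in TPA mice, 32.2, 37.9 and 57.4 CPM in RGRN-305 mice and 33.7, 40.2 and 44.1 CPM in vehicle mice. The highest RGRN-305 mouse reached into the range of the TPA mice.

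**Figure D4:**
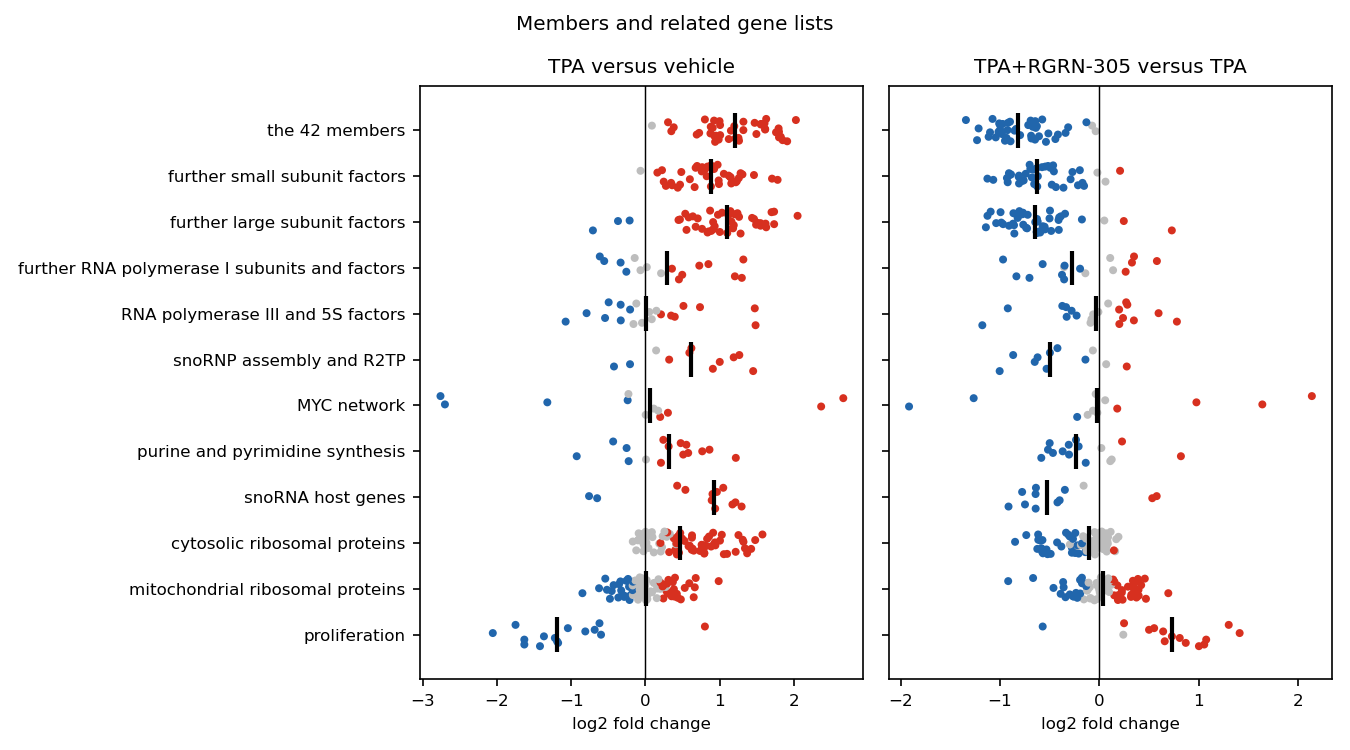
Log2 fold change (x axis) of the 42 members and of 11 related lists (rows), 1 point per gene, with a black bar at the median, in TPA versus vehicle (left) and TPA+RGRN-305 versus TPA (right). Red and blue mark genes higher or lower at an adjusted p under 0.05, and grey the rest. The members (medians 1.21 and -0.82) and the further subunit factors lie to the right after TPA and to the left with the inhibitor, and the cell division genes (median -1.19 after TPA) lie on the other side. With library totals alone the cytosolic ribosomal proteins had 18 genes lower after TPA.

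Of 12 genes of the MYC network 4 were higher and 4 lower after TPA, where 31.6% of all genes were higher and 34.4% lower, so these counts are near the background. With the inhibitor 4 were higher and 3 lower, where 33.0% of all genes were higher and 32.6% lower. The largest changes were falls, of Mycl (-2.76, SE 0.10) and Mxd3 (-2.70, SE 0.26). Mxd3 had few counts, with 0.17 to 0.66 CPM in TPA mice and 1.91 to 3.96 CPM in vehicle mice. Myc itself had 104, 136 and 205 CPM as the lowest, median and highest in TPA+RGRN-305 mice, 309, 345 and 385 CPM in TPA mice, 63.4, 72.9 and 90.5 CPM in RGRN-305 mice and 44.4, 50.2 and 74.5 CPM in vehicle mice. The TPA mice lay above all the others. Its log2 value was 2.67 after TPA (SE 0.14) and -1.27 with the inhibitor (SE 0.09), and that of Mxd1, a partner of Max that opposes Myc, was 2.37 and -1.92. Both were named after their values were seen. With library totals 2 of the 12 were higher and 5 lower after TPA, and 8 were higher and 2 lower with the inhibitor.

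MYC binds the sequence CACGTG, and 3 members carried it in the 250 bases upstream of the annotated start, out of 37 members with a promoter window in the RefSeq table (GRCm38.p6). This was 8.11% of those members, where 6.86% of all 27025 genes with a window carried it, so the share is near the background and is no result about the members. No other motif was searched, and this one reads the same on both strands. The windows of the 3 are printed 5′ to 3′ on the strand of the gene, since they are the members in which the letters occur, with CACGTG in capitals and the rest in lower case.
Nop2, chr6:125131633-125131882, plus strand: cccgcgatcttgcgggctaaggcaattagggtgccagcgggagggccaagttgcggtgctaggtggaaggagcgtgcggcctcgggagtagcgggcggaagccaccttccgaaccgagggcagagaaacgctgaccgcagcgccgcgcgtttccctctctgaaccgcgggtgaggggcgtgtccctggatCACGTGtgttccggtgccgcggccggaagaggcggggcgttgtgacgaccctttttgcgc
Rrn3, chr16:13780449-13780698, plus strand: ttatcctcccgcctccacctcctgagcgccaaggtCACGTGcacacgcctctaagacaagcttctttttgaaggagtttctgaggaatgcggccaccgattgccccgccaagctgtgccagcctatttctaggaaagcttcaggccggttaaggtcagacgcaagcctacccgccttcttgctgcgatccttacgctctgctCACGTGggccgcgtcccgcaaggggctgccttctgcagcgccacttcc
Utp18, chr11:93885767-93886016, minus strand: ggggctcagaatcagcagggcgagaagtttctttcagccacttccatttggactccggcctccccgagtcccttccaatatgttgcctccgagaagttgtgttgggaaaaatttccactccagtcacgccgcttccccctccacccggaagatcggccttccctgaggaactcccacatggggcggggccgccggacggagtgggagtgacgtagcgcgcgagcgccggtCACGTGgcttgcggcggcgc

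The motif began 60 bases before the start in Nop2, 215 and 48 bases before it in Rrn3, and 20 bases before it in Utp18. After TPA these 3 had log2 fold changes of 1.61 (Nop2), 1.01 (Rrn3) and 0.999 (Utp18), with a median of 1.01. The 34 members without the letters in the 250 bases searched had a median of 1.24. The 2 medians were not compared by a test, and 3 genes are too few to tell them apart. A match is a description of letters, and whether any factor was bound there was not measured. Fbl, Npm1, Bop1, Rrp12 and Gnl2 were not searched.

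Levels differed widely among the members. Per kilobase (kb) of deposited exonic gene length, the mean over TPA mice was highest for Nhp2, with 114 CPM per kb against 70.8 CPM per kb in vehicle mice, and for Ncl, with 91.9 against 45.7 CPM per kb. It was lowest for Wdr12, with 2.48 against 1.42 CPM per kb. The length counts all annotated exons, so a gene with long rare exons is set too low. Of the members, 31 share exon bases with a gene on the opposite strand, and the strand setting of the counting is not given in the sources used here. If strand was not used, reads in the shared bases fit both genes and were left out, so the counts of these members may be too low. Where the authors' annotation lacked the neighbour, its reads there may have been added to the member, and the counts may be too high. Nhp2, the highest per kb, shares 967 exon bases with Rmnd5b. A small nucleolar RNA is annotated inside 7 members (Dkc1, Gnl3, Ncl, Nop56, Nop58, Tsr1 and Wdr43). Across mice of 1 group the coefficient of variation of a member had a median of 11.2% in TPA+RGRN-305, 8.97% in TPA, 9.19% in RGRN-305 and 7.79% in vehicle mice.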

How the data were processed

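The deposited counts are whole numbers, not normalized. The authors made them from paired-end reads of stranded libraries, aligned on GRCm39, keeping for each gene the reads that aligned once and to 1 gene (Subread 2.10.3, as the submitters' processing notes give it). Symbols and positions came from GENCODE release M39, which matched 54749 genes (665 not). Genes passed filterByExpr (minimum count 10, minimum total count 15). Counts were scaled by TMM, and all 28 libraries were fitted with a term per group in edgeR (4.0.16, under R 4.3.3) with its quasi-likelihood test, with Benjamini-Hochberg adjustment over all genes tested. Standard errors were worked out from that test, as the absolute log2 fold change divided by the square root of its F statistic. Log2 CPM used a prior count of 2. Alternatives were RLE size factors, library totals, no filter, DESeq2 (1.42.0), a replicate block, only the groups compared, leaving out libraries with hair follicle transcripts and leaving out each mouse.

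The members, lists and rules were chosen with earlier results of these data known. Values per mouse are given for the members with the 4 highest and 4 lowest changes after TPA, the 3 lowest and 3 highest with the inhibitor, the 2 highest in TPA+RGRN-305 versus vehicle, the 2 smallest p-values with RGRN-305 alone and in the interaction, and the highest level of each role. Of each related list the 2 largest changes after TPA are named. Snhg7 and Lor of the lists were not analysed here.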

Additional observations from a re-analysis of the deposited data

Results flagged for a closer look

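Fbl in TPA+RGRN-305 mouse 4 had 37.0 CPM, far from the next highest mouse of its group with 28.2 CPM, a gap of 0.48 of the group's range. It was the 1 such case among 168 pairs of a member and a group. The limit used is one that chance passes in about 1 in 20 groups, and here 0.595% of the pairs passed it.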

How the results depend on the processing

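The counts of called members were within 1.5 times of the reported ones under RLE size factors, no low-count filter, DESeq2, only the groups compared and both exclusions of libraries with hair follicle transcripts, of which that at 2 times the median was chosen after seeing the data. The stricter DEG rule gave 26 higher after TPA, 10 lower in TPA+RGRN-305 versus TPA, 1 higher in TPA+RGRN-305 versus vehicle and 18 lower in the interaction. Library totals gave 1 lower after TPA, 3 higher in TPA+RGRN-305 versus TPA and 1 higher in the interaction. Under library totals Polr1c turned to -0.20 after TPA (adjusted p = 0.0145), Nop10 to 0.22, Polr1c to 0.18 and Ubtf to 0.13 in TPA+RGRN-305 versus TPA, and Polr1c to -0.015 in TPA+RGRN-305 versus vehicle. The last became -0.021 without the libraries over 2 times the median. Leaving out each mouse gave 40 to 41 higher after TPA, 40 to 40 lower with the inhibitor, 31 to 37 higher in TPA+RGRN-305 versus vehicle and 39 to 41 lower in the interaction, and put Nop10 between -0.082 and 0.029 with the inhibitor (above 0 only without TPA mouse 4) and Polr1c between -0.040 and 0.075 in TPA+RGRN-305 versus vehicle (below 0 without vehicle mouse 1 or 2 or TPA+RGRN-305 mouse 2 or 10). The cause of these changes was not tested, other than that library totals moved the median of all genes.

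The replicate numbers showed no pairing of the mice: same-numbered mice of different groups had a median correlation of -0.01 in their deviations (range -0.13 to 0.20, 30 pairs). Differently numbered mice had a median of -0.003 (246 pairs). Of 28 libraries, 2 correlated best with their own number in every other group that holds it. For numbers that all 4 groups hold this asks for several matches at once, so a low count says little. With RGRN-305 alone, 8 genes were higher and 4 lower without the libraries over 2 times the median, where 0 were called with all libraries. That fit left out RGRN-305 mice 3 and 4, so the RGRN-305 group held mice 1 and 2 alone. A fit with the replicate number as a block called 40 higher after TPA, 40 lower in TPA+RGRN-305 versus TPA, 29 higher in TPA+RGRN-305 versus vehicle and 40 lower in the interaction. In the same order and directions it called 5632, 6109, 1555 and 4563 of all 18991 genes.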
